A study of Mus musculus with 16 samples.

Results

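The glycolysis enzymes are the proteins that break glucose down to pyruvate and lactate, and 10 of their genes were followed here at the mRNA level: *Hk1*, *Hk2*, *Pfkl*, *Pfkp*, *Aldoa*, *Pgk1*, *Pgam1*, *Eno1*, *Pkm* and *Ldha*. They were chosen by name, and all 10 were found among the 24974 genes listed by both count tables of the study. Glycolysis phosphorylates glucose, splits it into a pair of triose phosphates and harvests ATP and NADH on the way to pyruvate, which either enters the mitochondrion or is reduced to lactate. Most steps have several isozymes encoded by separate genes, and tissues differ in which isozyme they use. In the thymus, proliferating precursors rely on the pathway heavily, while resting thymocytes run it at a lower rate.

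The RNA-seq series holds 16 samples of mouse thymocytes in 4 groups, with fragments counted per gene. The controls carry the floxed *Tox4* allele and no Cre (genotype label Tox4;F/F) and comprise 3 samples of DP cells, which bear both CD4 and CD8, and 5 samples of CD8 cells. The cKO samples, 3 of DP cells (label Tox4;F/F;Lck+) and 5 of CD8 cells (label Tox4;F/F;Lck-cre), also carry a Cre transgene under the proximal *Lck* promoter. All mice were sex-matched littermates aged 6 to 8 weeks. The floxed allele, made by CRISPR-Cas9 on a C57BL/6 background, lets Cre remove exons 4 to 6 of *Tox4* in developing T cells from the DN3 stage on, so other cells of the thymus keep the gene. No group carries Cre without the floxed allele, so an effect of Cre itself and one of the deletion cannot be told apart. The paper describes both cell types as sorted for RNA-seq, CD8 cells as TCRβ+CD8+ thymocytes, while the series label calls the DP cells purified. Stranded libraries were made from polyA RNA. Fragments on genes numbered from 14583336 to 25981683 per DP sample and from 8514135 to 13530783 per CD8 sample.

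The markers of both cell types were in place, but the CD8 samples were not alike. All 9 DP markers tested were lower in control CD8 than in control DP samples, and 7 of 9 CD8 markers were higher, the other two, *Cd8a* and *Cd8b1*, standing on both lists and being lower. Of all genes tested, 29.9% were higher and 30.4% lower in that comparison. *Rag1*, which recombines T cell receptor genes at the DP stage, had 2556 to 4269 TPM (a level scaled by the exonic length of the gene and by the sample total) in DP samples. In CD8 samples numbered 1 and 2, of either genotype, *Rag1* had 37.2 to 60.1 TPM, against 5.57 to 15.8 in numbers 3 to 5. The same 4 samples had 62.1 to 81.6 TPM of *Cd4*, against 3.64 to 10.7 in the other CD8 samples, and *Klf2*, a factor of mature thymocytes, stood at 429.5 to 585 TPM against 898 to 1599.

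Sex differed between samples as well. *Xist*, the RNA of the inactive X chromosome, was at most 0.109 TPM in every DP sample and 593 to 946 TPM in CD8 samples numbered 1, 2 and 5 of both genotypes. CD8 samples numbered 3 and 4 carried the Y-linked *Ddx3y* instead, at 65.4 to 112 TPM. The library labelled CD8 cKO replicate 4 held both, with 5.003 TPM of *Xist* beside 65.4 TPM of *Ddx3y*, and its *Tox4* mRNA, at 162 TPM, was higher than in any other of the 16 samples. *Tox4* had 104 to 113 TPM in control and 77.8 to 89.04 TPM in cKO DP samples, without overlap, and 129 to 148 and 122 to 162 TPM in control and cKO CD8 samples, with overlap. It passed the test in neither cell type (adjusted p of 0.138 to 0.767 over its 14 alternatives in DP and 0.878 to 0.9995 over its 19 alternatives in CD8 cells). Counts per gene do not separate the floxed exons from the rest of *Tox4*, so these levels do not measure the deletion. By Western blot of unsorted and sorted thymocytes, the paper found the deletion efficient. CD8 control replicate 1 had the lowest level among the control CD8 samples for 8 of the 10 enzymes, all but *Hk1* and *Pgam1*. It also had the highest sums of B cell, NK and innate, thymic epithelium, and stroma and muscle markers among all 10 CD8 samples, at 65.5, 21.7, 6.18 and 10.6 TPM. In that library 17741 genes were detected, against 13708 to 15054 in the other CD8 samples. The paper describes the CD8 cells as sorted for TCRβ and CD8, and the part of other cells, or of the library as a whole, in these enzyme levels was not tested. DP and CD8 cells came as separate experiments in separate tables, so cell type, experiment and, in part, sex cannot be told apart, and calls of the enzymes that changed without a library named here are given with and without it.

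The 10 enzymes differed widely in level. In control DP cells *Eno1* (enolase) and *Pkm* (pyruvate kinase) led with means of 611 ± 8.603 and 563 ± 64.7 TPM (SD, n = 3), followed by *Ldha* (lactate dehydrogenase A) at 465 ± 74.9 TPM. The sample ranges of *Eno1* and *Pkm* overlapped, as did those of *Pkm* and *Ldha*. *Pgk1* and *Aldoa* came next at 226 and 220.2 TPM with overlapping ranges, then *Hk1*, *Pfkp*, *Pgam1* and *Pfkl* at 104, 69.99, 45.6 and 30.4 TPM, each apart from its neighbours in every sample. *Hk2* was the least abundant at 2.104 ± 0.153 TPM (SD, n = 3) and rested on 66, 82 and 65 fragments. Together the 10 genes made up 2271 to 2407 TPM in control DP and 2081 to 2744 TPM in control CD8 samples. In control CD8 cells *Eno1*, *Pkm* and *Ldha* again had the highest means, followed by *Aldoa* at 212 TPM, while *Hk1* at 137 TPM stood beside *Pgk1* at 127 TPM, and *Pgam1* at 95.6 TPM beside *Pfkp* at 93.7 TPM. Of 7 close gene copies of the enzymes, 1 passed the filter on low counts when CD8 and DP samples were compared, *Eno1b*, and how fragments were shared between it and *Eno1* is uncertain.

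**Figure D1:**
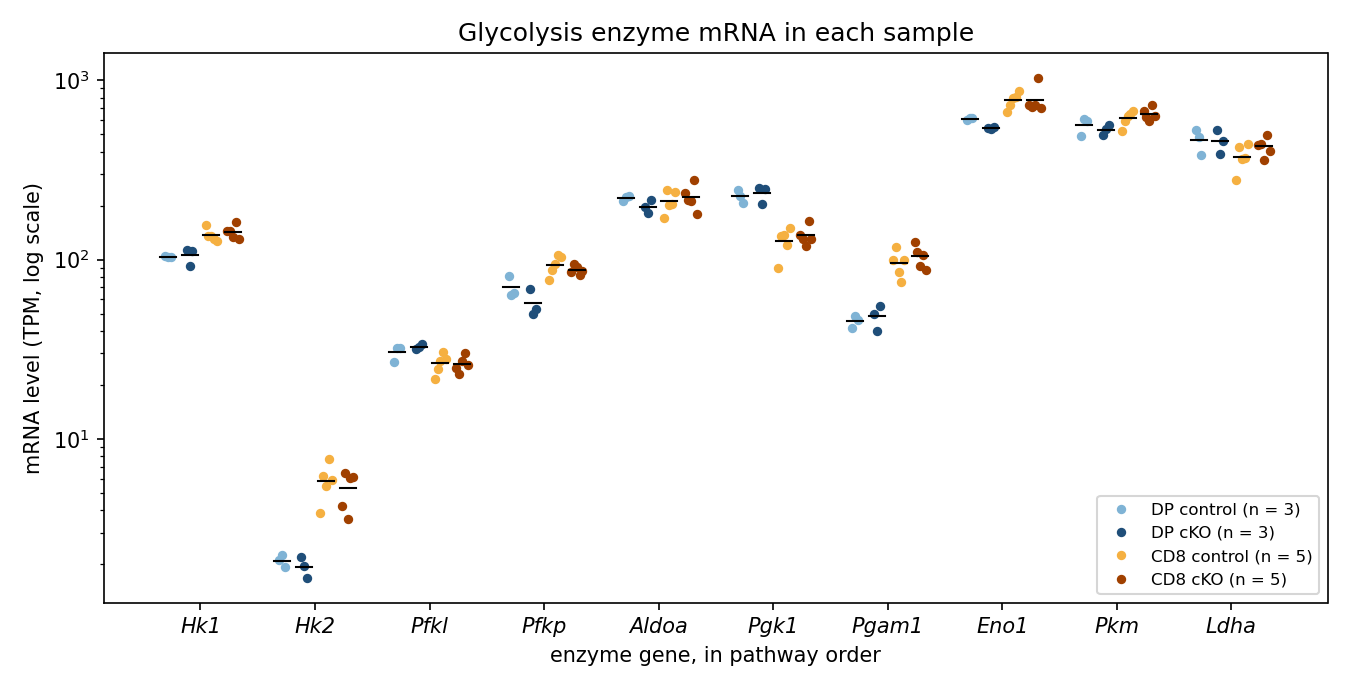
Level of each glycolysis enzyme mRNA in TPM (vertical log axis) in every sample, with 1 point per sample, colours for the 4 groups and black lines for group means. *Eno1* has the highest mean in each of the 4 groups, and its single samples run from 531 to 547 TPM in DP cKO up to 1028 TPM in CD8 cKO replicate 4. *Hk2* has the lowest mean in each group, with samples at 1.69 to 2.25 TPM in DP and 3.59 to 7.73 TPM in CD8 cells.

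The first comparison asks whether the enzymes differ between cKO and control DP cells, and none passed the test. The edgeR quasi-likelihood test, adjusted over 11748 genes by the Benjamini-Hochberg method and read at an adjusted p of 0.05, called 0 of 10, where 0.145% of all genes tested were called. None of the 10 reached an unadjusted p of 0.05 either, a mark passed by 9.18% of all genes. DESeq2, which does not use the edgeR filter on low counts and called 176 genes in all, also called 0 of the 10. With the replicate numbers as pairs in the model, calls among all genes rose from 17 to 152, or 1.29%, and calls among the enzymes were still 0. Log2 fold changes of cKO over control ran from -0.26 for *Pfkp* to 0.14 for *Pfkl*, both isozymes of phosphofructokinase, the committed step. Their median was -0.02, beside -0.001 over all genes tested.

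*Eno1*, which dehydrates 2-phosphoglycerate, was the single enzyme whose DP groups did not overlap in TPM, an arrangement seen in 14.9% of all genes. The control samples had 601, 618 and 614 TPM and the cKO samples 542, 531 and 547 TPM, so every cKO sample was the lower. In TMM-normalized CPM (counts scaled by library size) the controls stood at 343, 380.5 and 379 and the cKO samples at 320.4, 320.0 and 362, and here the groups overlapped. The fitted log2 fold change was -0.14 (SE 0.105, adjusted p = 0.7596), with a 95% confidence interval of -0.38 to 0.10. *Pfkp*, the platelet-type phosphofructokinase, had 80.8, 63.6 and 65.5 TPM in control and 68.5, 49.6 and 52.8 TPM in cKO samples, which overlapped through cKO replicate 1. Its log2 fold change was -0.26 (SE 0.137, adjusted p = 0.631), with an interval of -0.57 to 0.05. In normalized CPM *Pfkp* and *Eno1* were each lower in the cKO sample of 3 of 3 pairs, and with the pairs in the model their adjusted p was 0.218 and 0.423, short of the threshold (ranges of 0.218 to 0.976 over its 14 alternatives and 0.423 to 0.953 over its 14 alternatives). The intervals of the other 8 enzymes also included 0, and the widest was that of *Hk2*, -0.61 to 0.45.

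Another enolase gene did change. *Eno3*, the muscle-type enolase, had 21.98, 22.5 and 20.1 TPM in control and 51.7, 52.3 and 50.5 TPM in cKO DP samples, with no overlap. The fitted log2 fold change was 1.30 (SE 0.136, adjusted p = 0.0166), and it was the 1 gene called among the 9 tested of 19 other glycolysis genes, beside 0.145% of all genes. That call was lost when certain single libraries were left out: the adjusted p was 0.181 and 0.0718 without control replicates 2 and 3, and 0.157 and 0.124 without cKO replicates 2 and 3 (range 2.66e-11 to 0.181 over its 14 alternatives). The estimates moved little, to 1.35, 1.26, 1.29 and 1.28 in the same order. *Eno3* held 3.395% ± 0.199 (SD, n = 3) of the enolase mRNA in control and 8.68% ± 0.258 (SD, n = 3) in cKO DP cells, and *Eno1* accordingly 96.3% ± 0.2101 (SD, n = 3) and 90.99% ± 0.302 (SD, n = 3). The summed enolase mRNA was 635 ± 9.26 TPM in control and 594 ± 6.98 TPM in cKO samples (SD, n = 3).

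Of 8 regulators of the pathway, edgeR called 1 in DP cells, where 0.145% of all genes were called. It was *Myc*, a transcription factor known to drive glycolysis genes. Its levels were 47.3, 49.2 and 43.2 TPM in control and 83.2, 97.2 and 86.5 TPM in cKO samples. These did not overlap, and the fit gave a log2 fold change of 0.97 (SE 0.126, adjusted p = 0.0315). The adjusted p of *Myc* was 0.07801, 0.208 and 0.152 without control replicates 1, 2 and 3, and 0.202 and 0.149 without cKO replicates 2 and 3 (range 1.30e-07 to 0.208 over its 14 alternatives), where the log2 fold changes were 0.94, 1.04, 0.93, 0.91 and 0.96. No member of the other pathway lists was called by edgeR: 0 of 5 enzymes that make or break fructose 2,6-bisphosphate, 0 of 12 genes of pyruvate entry and oxidation, 0 of 7 of the pentose phosphate pathway, 0 of 4 of gluconeogenesis and 0 of 6 glucose and lactate carriers. Of these 34 genes, 3 had an unadjusted p under 0.05, beside 9.18% of all genes. DESeq2, which called 176 genes under its own filter, called 1 of the 34, *Pgls*, the lactonase of the pentose phosphate pathway. *Pgls* had 90.8, 117 and 94.1 TPM in control and 164, 165 and 211 TPM in cKO samples, with no overlap and a fitted log2 fold change of 0.88 (SE 0.179, adjusted p = 0.129). With the pairs in the model its adjusted p was 0.0236, without the filter on low counts 0.0249, and with DESeq2 0.00146, in a range of 0.00146 to 0.384 over its 14 alternatives.

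Markers of other cells and stages were compared between cKO and control DP samples too, and edgeR called 0 in each list. Among all 11748 genes of the edgeR fits, 9.18% had an unadjusted p under 0.05, and the fit with the pairs called 1.29%. Under its own filter DESeq2 called 176 genes. Of 9 CD8 markers, 5 had an unadjusted p under 0.05, DESeq2 called 2 and the fit with the pairs 3, with a median log2 fold change of -0.45. Myeloid markers had a median of -0.89, with 2 of 6 at an unadjusted p under 0.05 and 1 by DESeq2, and summed to 30.9 to 75.7 TPM in control and 20.4 to 23.6 TPM in cKO samples. The median was -1.08 for B cell markers (2 of 4 at an unadjusted p under 0.05, 0 by DESeq2) and 0.36 for proliferation genes (2 of 16, 0 by DESeq2). Over all genes tested the median was -0.001, and the part of a different mix of cells in the DP comparison was not tested.

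In CD8 cells the same question gave the same count. The edgeR test over 11227 genes called 0 of 10 enzymes between cKO and control, where 0.107% of all genes were called. At an unadjusted p of 0.05 the count was 0 of 10, against 5.6% of all genes. DESeq2, which called 67 genes under its own filter, called 0 of the 10. Log2 fold changes ran from -0.17 for *Hk2* to 0.17 for *Ldha*, with a median of 0.05 beside -0.01 over all genes, and the groups overlapped for every enzyme in normalized CPM. *Ldha*, which reduces pyruvate to lactate, had 277, 422, 362, 371 and 443 TPM in control and 436, 441, 360.1, 498 and 402 TPM in cKO samples, an adjusted p of 0.979 and an interval of -0.11 to 0.44. *Hk2*, the inducible hexokinase, had 3.85, 6.25, 5.45, 7.73 and 5.92 TPM in control and 4.23, 6.45, 3.59, 6.09 and 6.17 TPM in cKO samples, an adjusted p of 0.979 and an interval of -0.63 to 0.29, the widest of the 10. *Eno1* reached 1028 TPM in the library labelled cKO replicate 4, while the other 4 cKO samples lay between 695 and 729.8 TPM, within the control range of 664 to 873 TPM. Its log2 fold change of -0.02 (adjusted p = 0.998) became -0.17 without that library, short of the threshold in both cases (adjusted p of 0.944 to 0.9995 over its 19 alternatives). With CD8 samples numbered 3 to 5 alone, a choice made after their markers were seen, edgeR again called 0 of the 10. Of the other pathway lists, edgeR called no gene between cKO and control CD8 cells, where 2 of 9 other glycolysis genes and 1 of 5 genes of fructose 2,6-bisphosphate had an unadjusted p under 0.05 and DESeq2 called 1, *Eno3*.

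*Eno3* in CD8 cells set 1 library apart. Control samples had 36.1, 26.5, 28.6, 23.3 and 31.3 TPM, and the cKO samples had 71.9, 53.3, 57.5, 27.4 and 53.5 TPM. Every cKO library but replicate 4 lay above all controls, and replicate 4, the library with the highest *Tox4*, lay within the control range. Over all 10 samples the log2 fold change was 0.82 (SE 0.203, adjusted p = 0.208), short of the threshold. Without cKO replicate 4 it was 0.97 (adjusted p = 0.0285), past it, as it was over all samples with DESeq2 (adjusted p = 0.03596) and with the replicate block (0.78, adjusted p = 0.0304). The adjusted p ran from 0.0285 to 0.494 over its 19 alternatives. In normalized CPM *Eno3* was higher in the cKO sample of 5 of 5 same-numbered pairs, number 4 included. CD8 numbers were not taken as pairs in the main fit, and no label says whether they are. *Eno3* was named in CD8 cells after its values were seen. Its share of enolase mRNA was 5.04, 3.46, 3.44, 2.79 and 3.44% in the control and 8.896, 6.94, 7.29, 2.59 and 7.06% in the cKO samples.

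The test of the difference itself, an interaction of genotype with cell type over all 4 groups, called 0 of 10 enzymes, against 0.107% of 12131 genes. None had an unadjusted p under 0.05, against 5.27% of all genes, and DESeq2, which called 36 of all genes, called 0 as well. The estimates lay between -0.19 for *Pfkl* and 0.17 for *Aldoa*, and each was smaller than its standard error, from 0.166 for *Hk1* to 0.33 for *Hk2*. For *Eno3* the interaction was -0.48 (SE 0.293, adjusted p = 0.9496), so the effect was not shown to differ between the cell types. For *Myc* it was -1.08 (SE 0.226, adjusted p = 0.09097), short of the threshold by edgeR and past it with DESeq2 (adjusted p = 0.00614), without the filter on low counts (0.0348) and with the replicate block (0.0109), in a range of 0.00614 to 0.317 over its 24 alternatives. In CD8 cells *Myc* was higher in the cKO sample of 1 of 5 same-numbered pairs, against 3 of 3 in DP cells.

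**Figure D2:**
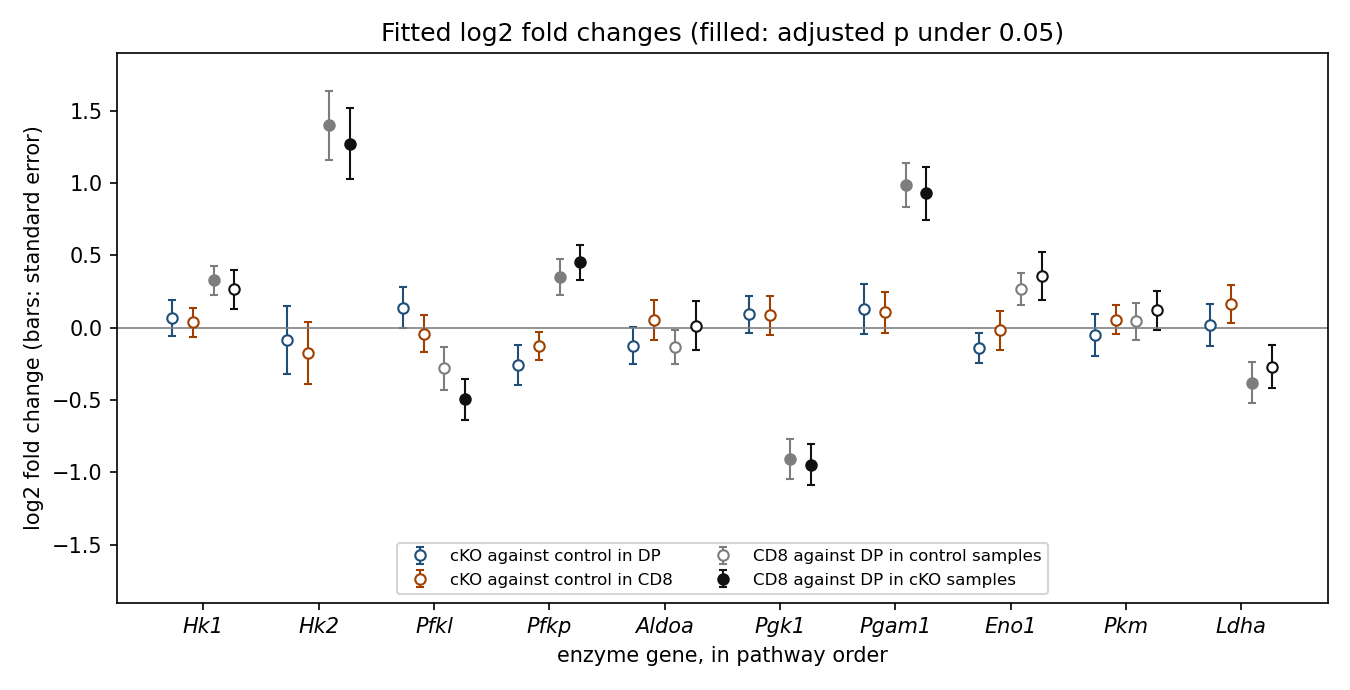
Fitted log2 fold change (vertical axis) of each enzyme in 4 comparisons, with bars for the standard error and filled points for an adjusted p under 0.05. All points for cKO against control are open and lie between -0.26 and 0.17, while those of CD8 against DP reach 1.40 for *Hk2* and -0.95 for *Pgk1*.

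Between the cell types the enzymes differed in both directions. In control samples, edgeR called 4 of 10 higher in CD8 than in DP cells (*Hk1*, *Hk2*, *Pfkp* and *Pgam1*), where 29.9% of 11758 genes were called higher. It called 2 of 10 lower (*Pgk1* and *Ldha*), where 30.4% of genes were. The normalized CPM of the groups did not overlap for 4 of 10, namely *Hk1*, *Hk2*, *Pgk1* and *Pgam1*, against 56.9% of all genes. With 10 genes, these shares are not set apart from the background, and the median log2 fold change was 0.16 beside -0.01 over all genes. The cKO samples share no library with the controls but come from the same experiments, so cell type and experiment cannot be told apart there either. They gave 3 of 10 higher (*Hk2*, *Pfkp* and *Pgam1*), where 29.6% of 11740 genes were. In the same samples 2 of 10 were lower (*Pfkl* and *Pgk1*), where 33.5% were. Groups did not overlap there for 5 of 10, against 58.6% of genes, and the median was 0.19 beside -0.06. *Hk2*, *Pgam1* and *Pgk1* passed in the same direction in both genotypes under all 19 alternatives, and in each genotype every CD8 sample lay beyond every DP sample. The share of all genes that did so was not computed, so this result is not set against a background. The samples are bulk RNA, so a different mix of cells and a different amount of RNA per cell cannot be told apart.

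**Figure D3:**
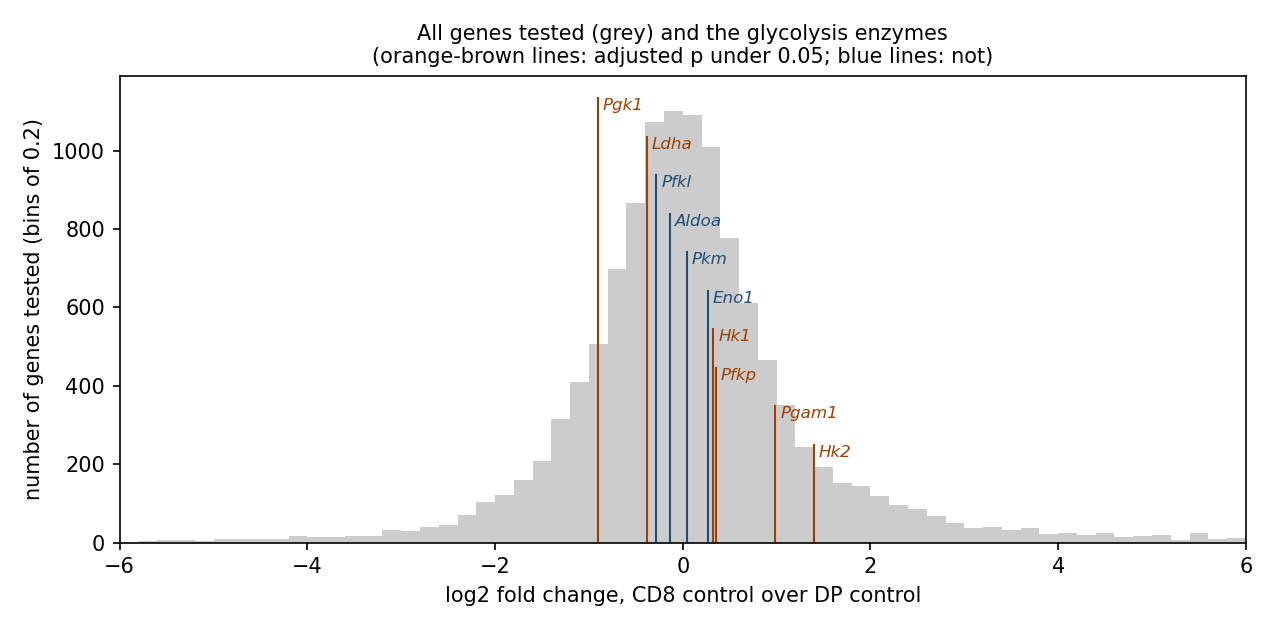
Histogram of log2 fold changes of CD8 over DP control samples (horizontal axis) for the genes tested (grey, vertical axis in genes per bin), with a line for each glycolysis enzyme. The enzymes spread from -0.91 (*Pgk1*) to 1.40 (*Hk2*) around the middle of the distribution, and 41 genes with a size over 6 are not drawn.

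Hexokinase traps glucose in the cell as glucose 6-phosphate. *Hk2* (chromosome 6, 82725027 to 82774454 of mm10) had 2.12, 2.25 and 1.94 TPM in control DP and 3.85, 6.25, 5.45, 7.73 and 5.92 TPM in control CD8 samples. Every CD8 value was above every DP value, and the lowest belonged to CD8 replicate 1. The log2 fold change was 1.40 (SE 0.241, adjusted p = 0.000361), and in cKO samples it was 1.27 (SE 0.247, adjusted p = 0.000653). *Hk1* (chromosome 10, 62268855 to 62379908), the housekeeping hexokinase bound to mitochondria, had 104, 103 and 103 TPM in control DP and 156, 135, 135, 131 and 127 TPM in control CD8 samples, again with no overlap. Its log2 fold change of 0.33 (SE 0.098, adjusted p = 0.0129) passed the test, also with any single library left out. It was short of the threshold with the replicate block, at 0.36 (adjusted p = 0.0571, range 0.003599 to 0.0571 over its 19 alternatives), and that fit decides little here, since no label says that a DP and a CD8 sample of the same number belong together. In cKO samples *Hk1* did not pass, at 0.27 (SE 0.138, adjusted p = 0.112), but did without CD8 cKO replicate 5, at 0.33 (adjusted p = 0.0483, range 0.0483 to 0.383 over its 19 alternatives). *Hk1* made up 97.8% ± 0.104 (SD, n = 3) of hexokinase mRNA in control DP and 94.95% ± 0.714 (SD, n = 5) in control CD8 cells, and *Hk2* 1.99% ± 0.141 (SD, n = 3) and 4.12% ± 1.17 (SD, n = 5).

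At the committed step, which adds a further phosphate to fructose 6-phosphate, the mix of isozymes differed. *Pfkp* (chromosome 13, 6579874 to 6648771) had 80.8, 63.6 and 65.5 TPM in control DP and 76.6, 87.97, 93.98, 106 and 104 TPM in control CD8 samples, which overlapped through CD8 replicate 1 and DP replicate 1. The log2 fold change was 0.35 (SE 0.125, adjusted p = 0.0276), and it did not pass without DP control replicate 2 (adjusted p = 0.104), DP control replicate 3 (0.0845), CD8 control replicate 4 (0.0572) or CD8 control replicate 5 (0.0622). *Pfkp* did not pass without the filter on low counts either (0.0531). Its adjusted p ran from 0.00308 to 0.229 over its 19 alternatives, the highest with the replicate block, which here too joins samples not known to be related. In cKO samples it was 0.45 (SE 0.122, adjusted p = 0.00596), past the threshold with any single library left out. *Pfkl* (chromosome 10, 77986949 to 78009807), the liver-type isozyme, ranged over 26.8 to 32.2 TPM in control DP and 21.5 to 30.7 TPM in control CD8 samples. Its log2 fold change was -0.28 (SE 0.146, adjusted p = 0.116), and without DP control replicate 1 it was -0.40 (adjusted p = 0.0429, range 0.0429 to 0.542 over its 19 alternatives). In the cKO samples *Pfkl* was lower in CD8 cells, at -0.50 (SE 0.141, adjusted p = 0.00828), and short of the threshold with CD8 samples 3 to 5 alone (-0.41, adjusted p = 0.0516) or those low in *Xist* alone (-0.30, adjusted p = 0.187). The muscle-type *Pfkm*, not among the 10, was lower in CD8 cells, at -1.07 (SE 0.133, adjusted p = 3.08e-05). *Pfkp* took 50.7% ± 1.68 (SD, n = 3) of phosphofructokinase mRNA in control DP and 67.4% ± 2.06 (SD, n = 5) in control CD8 cells, while *Pfkm* took 26.96% ± 2.57 (SD, n = 3) and 13.7% ± 2.5 (SD, n = 5). The summed mRNA of the step was 138 ± 13.8 TPM (SD, n = 3) in DP and 139 ± 14.2 TPM (SD, n = 5) in CD8 controls, within the spread of either group.

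*Aldoa* (chromosome 7, 126795234 to 126800447), the aldolase that splits the hexose into triose phosphates, did not pass in either genotype. Control samples held 212 to 226 TPM in DP and 171 to 244 TPM in CD8 cells, and the log2 fold change was -0.13 (SE 0.117, adjusted p = 0.351) with an interval of -0.39 to 0.12. *Aldoa* made up 99.7% of aldolase mRNA in control DP and 99.4% in control CD8 cells.

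The enzymes on either side of 3-phosphoglycerate differed in opposite directions. *Pgk1* (chromosome X, 106187100 to 106203699), which makes the first ATP of the pathway, had 245, 227 and 206 TPM in control DP and 89.9, 135, 137, 121 and 150.4 TPM in control CD8 samples. All CD8 values lay below all DP values, the lowest in replicate 1. The log2 fold change was -0.91 (SE 0.137, adjusted p = 0.000133), and in cKO samples -0.95 (SE 0.144, adjusted p = 9.77e-05). The gene is X-linked and the CD8 samples were of mixed sex, and with the CD8 controls low in *Xist* alone the log2 fold change was -0.87 (adjusted p = 0.000267, range 2.72e-08 to 0.00152 over its 19 alternatives). *Pgam1* (chromosome 19, 41911871 to 41918665), the mutase that follows, had 41.7, 48.7 and 46.3 TPM in control DP and 99.6, 118, 85.6, 75.1 and 99.2 TPM in control CD8 samples, with every CD8 value the higher. Its log2 fold change was 0.99 (SE 0.15, adjusted p = 0.000145) and in cKO samples 0.93 (SE 0.183, adjusted p = 0.000729). *Pgk1* made up all phosphoglycerate kinase mRNA counted, and *Pgam1* 99.6% of that of phosphoglycerate mutase in control CD8 cells, so isozyme shares were near constant at both steps.

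*Eno1* (chromosome 4, 150237197 to 150248873) lay at the edge of the threshold. Control DP samples had 601, 618 and 614 TPM and control CD8 samples 664, 730.4, 797, 809.8 and 873 TPM. No values overlapped in TPM, but in normalized CPM CD8 replicate 1, at 378.8, lay below DP replicates 2 and 3, at 380.5 and 379.2. The log2 fold change was 0.27 (SE 0.109, adjusted p = 0.0501). Leaving out CD8 control replicate 1 gave 0.32 (adjusted p = 0.0163) and leaving out replicate 2 gave 0.31 (0.03501), both past the threshold. So were DESeq2 (adjusted p = 0.0418), RLE normalization (0.0466) and the filter of at least 10 counts in every sample (0.0456). In cKO samples it was 0.36 (SE 0.168, adjusted p = 0.0803), and 0.43 without CD8 cKO replicate 5 (adjusted p = 0.0395). There *Eno1* also passed with CD8 samples low in *Xist* alone, at 0.59 (adjusted p = 0.0239), with RLE normalization (0.0493) and with all 4 groups in one fit (0.0374), but not with CD8 samples 3 to 5 alone, at 0.44 (0.06803). The CD8 cKO samples low in *Xist* were replicates 3 and 4, at 727 and 1028 TPM of *Eno1*. In cKO samples the log2 fold change of *Eno1* ran from 0.215 to 0.593 over its 19 alternatives. Over its alternatives the adjusted p ran from 0.00365 to 0.305 in control and from 0.0239 to 0.185 in cKO samples.

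The near copy *Eno1b* behaved otherwise. It had 0.403, 0.344 and 0.937 TPM in control DP and 40.7, 28.9, 29.9, 31.8 and 32.7 TPM in control CD8 samples, a log2 fold change of 5.76 (SE 0.323, adjusted p = 5.41e-08). The pair was also summed, a choice made after these levels were seen. The sum gave a log2 fold change of 0.33 (adjusted p = 0.0197) in control and 0.43 (adjusted p = 0.0421) in cKO samples, past the threshold in both. The neuronal enolase *Eno2* was also higher in CD8 cells, at 1.80 (SE 0.408, adjusted p = 0.00246), yet held 0.9696% ± 0.599 (SD, n = 5) of the enolase mRNA.

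*Pkm* (chromosome 9, 59656368 to 59679375), which makes pyruvate and the last ATP, did not pass in either genotype. Its levels were 489 to 605 TPM in control DP and 522 to 674 TPM in control CD8 samples, and the log2 fold change was 0.04 (SE 0.125, adjusted p = 0.779) with an interval of -0.23 to 0.32, so a change of the size seen for *Pgam1* lies outside it. Splice forms of *Pkm* were not separated by counts per gene.

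Lactate dehydrogenase closes the pathway where pyruvate is reduced. *Ldha* (chromosome 7, 46845804 to 46855627) encodes the subunit that favours lactate formation, and it had 528, 483 and 382 TPM in control DP and 277, 422, 362, 371 and 443 TPM in control CD8 samples. CD8 replicate 1 was the lowest, and the groups overlapped. The log2 fold change was -0.38 (SE 0.141, adjusted p = 0.0351). That call did not hold without DP control replicate 1 (adjusted p = 0.111), DP control replicate 2 (0.131), or CD8 control replicates 1, 3 or 4 (0.0512, 0.08099 and 0.0572), nor with CD8 samples 3 to 5 alone (0.0603), in a range of 0.0206 to 0.131 over its 19 alternatives. In cKO samples it was -0.27 (SE 0.151, adjusted p = 0.139), and -0.35 without CD8 cKO replicate 4 (adjusted p = 0.0446, range 0.0446 to 0.448 over its 19 alternatives).

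*Ldhb*, not among the 10, encodes the subunit that favours the reverse reaction from lactate to pyruvate. It had 872, 770.0 and 893 TPM in control DP and 54.4, 82.97, 53.5, 48.4 and 65.2 TPM in control CD8 samples, a log2 fold change of -3.87 (SE 0.146, adjusted p = 5.76e-09), and in cKO samples -3.91 (SE 0.264, adjusted p = 9.05e-08). With CD8 samples 3 to 5 alone, *Ldhb* was at -3.98 in control and -4.44 in cKO samples, past the threshold in both. *Ldha* was thus 37.7, 38.5 and 29.98% of lactate dehydrogenase mRNA in the control DP samples and 83.6, 83.5, 87.1, 88.5 and 87.2% in the control CD8 samples. The share of *Ldha* was higher in every CD8 sample although *Ldha* itself was not, and the summed mRNA of the step was 1309 ± 79.4 TPM (SD, n = 3) in DP and 436 ± 73.6 TPM (SD, n = 5) in CD8 controls. The cKO samples showed the same, with 42.03, 35.6 and 39.2% in DP and 84.1, 85.97, 90.9, 93.4 and 91.1% in CD8 cells. CD8 samples numbered 1 and 2, with the higher *Rag1*, had the lowest shares of *Ldha* among CD8 samples in both genotypes, and the part of *Rag1*-expressing cells in these shares was not tested.

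**Figure D4:**
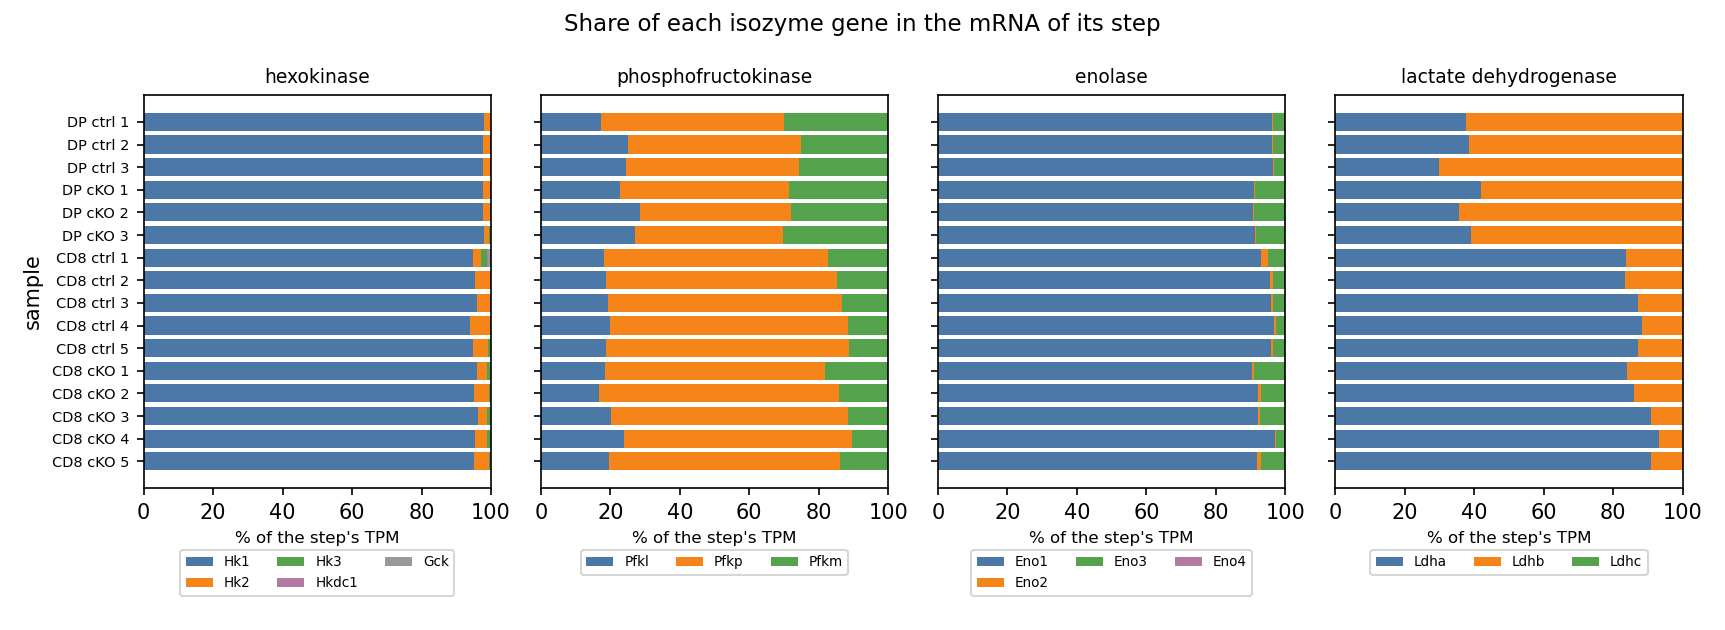
Share of each isozyme gene in the summed TPM of its step (horizontal axes, percent) for hexokinase, phosphofructokinase, enolase and lactate dehydrogenase, with 1 bar per sample. *Ldha* fills 29.98 to 42.03% of the lactate dehydrogenase bar in DP and 83.5 to 93.4% in CD8 samples, and the *Eno3* part of the enolase bar is wider in cKO samples except CD8 cKO replicate 4.

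The promoters of *Hk2*, *Pgam1*, *Pgk1* and *Ldha* are printed because these 4 enzymes passed the test between control CD8 and DP cells and hold ACGTG, the core of elements bound by hypoxia-inducible factors. The sequences are the 250 bases upstream of the outermost start of each gene in the count table, read 5′ to 3′ on the strand of the gene from the RefSeq promoter table (build GRCm38.p6): chr6:82774455-82774704 on the minus strand for *Hk2*, chr19:41911621-41911870 on the plus strand for *Pgam1*, chrX:106186850-106187099 on the plus strand for *Pgk1* and chr7:46845554-46845803 on the plus strand for *Ldha*. Capitals mark ACGTG on either strand, including CACGTG, which contains it.
Hk2: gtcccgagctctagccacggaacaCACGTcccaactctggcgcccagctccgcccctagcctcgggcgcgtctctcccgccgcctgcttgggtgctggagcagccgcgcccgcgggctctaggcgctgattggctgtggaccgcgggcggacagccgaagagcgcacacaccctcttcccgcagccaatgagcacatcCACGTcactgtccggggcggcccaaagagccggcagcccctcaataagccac
Pgam1: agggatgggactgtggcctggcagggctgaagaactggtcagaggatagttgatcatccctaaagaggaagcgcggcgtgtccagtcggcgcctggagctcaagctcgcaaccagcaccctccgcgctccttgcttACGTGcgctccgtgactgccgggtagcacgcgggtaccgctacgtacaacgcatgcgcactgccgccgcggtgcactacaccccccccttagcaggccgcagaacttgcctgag
Pgk1: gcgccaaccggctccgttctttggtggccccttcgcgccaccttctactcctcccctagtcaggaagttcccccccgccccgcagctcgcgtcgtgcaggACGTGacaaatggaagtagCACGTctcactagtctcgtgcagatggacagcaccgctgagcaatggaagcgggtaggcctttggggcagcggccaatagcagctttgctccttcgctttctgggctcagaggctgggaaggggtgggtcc
Ldha: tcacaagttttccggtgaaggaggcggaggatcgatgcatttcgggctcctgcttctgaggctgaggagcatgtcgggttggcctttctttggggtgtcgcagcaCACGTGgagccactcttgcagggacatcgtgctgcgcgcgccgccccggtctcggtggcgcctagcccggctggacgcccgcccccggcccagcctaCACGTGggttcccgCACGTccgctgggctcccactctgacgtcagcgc

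A promoter in the RefSeq table matched the outermost start for 9 of the 10 enzymes, all but *Pkm*. Of these 9, 4 held ACGTG on either strand in the 250 upstream bases, where 16.6% of 32851 promoters did. They were the 4 printed: *Ldha* with 5 matches at 3 places, *Hk2* and *Pgk1* with 2 each and *Pgam1* with 1. At the start searched, *Hk1*, *Pfkl*, *Pfkp*, *Aldoa* and *Eno1* had none. RefSeq lists 2 starts for *Hk1* and *Ldha* and 3 for *Aldoa* and *Eno1*, and only the outermost was searched. The share of 16.6% counts every promoter listed, so it is not a share of outermost starts. The palindrome CACGTG, which binds E-box factors such as Myc, was in 1 of the 9, *Ldha*, which held it 2 times, each counted on both strands among its 5 matches, and in 6.02% of all promoters. The 4 promoters belong to enzymes with opposite differences, since *Hk2* and *Pgam1* were higher and *Pgk1* and *Ldha* lower in CD8 cells. A match is a description, not a site or a cause, and no binding was measured here.

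Among the other glycolysis genes tested in control samples, 2 of 9 were higher in CD8 cells (*Eno2* and *Gpi1*), where 29.9% of all genes were, and 4 were lower (*Ldhb*, *Pfkm*, *Tpi1* and *Gapdh*), where 30.4% were. With 9 genes, these shares are not set apart from the background. *Tpi1*, which interconverts the triose phosphates, had a log2 fold change of -0.70 (SE 0.192, adjusted p = 0.00754), short of the threshold without DP control replicate 2 (-0.54, adjusted p = 0.0542, range 0.00182 to 0.0542 over its 19 alternatives). *Gapdh*, which oxidizes glyceraldehyde 3-phosphate, had 1406, 1843 and 1705 TPM in DP and 1342, 1254, 1052, 1075 and 1330 TPM in CD8 controls, a log2 fold change of -0.53 (SE 0.136, adjusted p = 0.00547). *Gpi1*, the isomerase after hexokinase, had 0.29 (SE 0.108, adjusted p = 0.0346), and did not pass without DP control replicate 1 (adjusted p = 0.1302) or CD8 control replicates 3, 4 or 5 (0.0537, 0.0626 and 0.0605). *Gpi1* did not pass either without the filter on low counts (0.0706), with all 4 groups in one fit (0.106), with the replicate block (0.168) or with CD8 samples low in *Xist* alone (0.0573), in a range of 0.0191 to 0.168 over its 19 alternatives. *Gapdh* and *Gpi1* were named after their values were seen, to complete the pathway. In cKO samples 2 of 9 other glycolysis genes were higher in CD8 cells (*Eno2* and *Hk3*), where 29.6% of all genes were, and 4 were lower, where 33.5% were. There the adjusted p of *Eno2* ran from 1.25e-05 to 0.0687 over its 19 alternatives and that of *Hk3* from 0.0163 to 0.0966 over its 17. *Gpi1* passed under none of its 19 alternatives in cKO samples (adjusted p of 0.1311 to 0.657).

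The counts for the entry of glucose and the fate of pyruvate rest on few genes, to be read beside the 29.9% higher and 30.4% lower of all genes, and no list was tested as a whole. The glucose carriers *Slc2a1* and *Slc2a3* were higher in control CD8 than DP cells, at 0.86 (SE 0.167, adjusted p = 0.000895) and 1.02 (SE 0.141, adjusted p = 6.81e-05), and *Bsg*, the chaperone of lactate carriers, was lower at -0.79 (SE 0.118, adjusted p = 0.000121), making 3 of 5 carriers called. Of 12 genes of pyruvate entry and oxidation, 1 was higher and 7 were lower, among them the carrier subunits *Mpc1* and *Mpc2* at -0.63 and -1.60 and the dehydrogenase subunits *Pdha1* and *Pdhb* at -0.64 and -0.65 on the log2 scale. The pentose phosphate pathway had 1 of 7 higher and 2 lower, with *Taldo1*, a transaldolase, at -1.24 (SE 0.139, adjusted p = 1.28e-05). Of 5 genes that set fructose 2,6-bisphosphate, the activator of phosphofructokinase, 1 was higher, the phosphatase *Tigar*, at 2.83-fold (adjusted p = 2.75e-05). Gluconeogenesis had 2 of 3 higher, led by *G6pc3*, a glucose 6-phosphatase, at 2.56 (SE 0.193, adjusted p = 5.26e-07). The other, *Pck2*, had 0.88 (SE 0.307, adjusted p = 0.0262) and did not pass without DP control replicates 1 or 3 (adjusted p = 0.0874 and 0.0946), without CD8 control replicate 2 (0.0541), or with CD8 samples 3 to 5 (0.0765) or those low in *Xist* (0.0931) alone, in a range of 0.00924 to 0.0946 over its 19 alternatives.

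Of the 8 regulators listed, 3 were called higher and 5 lower in control CD8 than DP cells, beside 29.9% and 30.4% of all genes. The call of *Epas1*, at -0.81 (SE 0.277, adjusted p = 0.0245), was lost without DP control replicate 3 (-0.46, adjusted p = 0.201), without CD8 control replicates 2 or 3 (adjusted p = 0.0511 and 0.0546) and with CD8 samples low in *Xist* alone (0.0515), in a range of 0.0107 to 0.201 over its 19 alternatives. That call was also lost with the replicate block (-0.796, adjusted p = 0.1065), which joins samples not known to be related. *Myc* had 47.3, 49.2 and 43.2 TPM in DP and 436, 368, 365, 310.1 and 274 TPM in CD8 controls, a log2 fold change of 2.84 (SE 0.158, adjusted p = 5.15e-08). The oxygen sensors *Egln2* and *Egln3*, which mark hypoxia-inducible factors for decay, were lower at -1.09 (SE 0.132, adjusted p = 2.48e-05) and -1.28 (SE 0.288, adjusted p = 0.00238). *Egln3* was unlike among the CD8 controls, with 35.6, 36.3, 15.1, 15.8 and 17.02 TPM, and with replicates 3 to 5 alone the log2 fold change of *Egln3* was -1.84 (adjusted p = 4.22e-06, range 4.22e-06 to 0.0157 over its 19 alternatives). Proliferation genes differed between the cell types too: 15 of 16 were lower in control CD8 cells, with a median log2 fold change of -1.73, and their summed level was 2024 to 3056 TPM in DP and 686 to 1256 TPM in CD8 controls, led by *Pcna*. Their part in the differences of the enzymes was not tested.

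Markers of other cells were low, and their part was likewise not tested. The counts called are to be read beside 29.9% of all genes higher and 30.4% lower in control CD8 samples. Of 5 myeloid markers tested, 3 were lower in control CD8 than DP samples, and their summed level was 30.9 to 75.7 TPM in DP and 2.74 to 12.9 TPM in CD8 controls, led by *Lyz2*. B cell markers summed to 41.8 to 61.5 and 20.4 to 65.5 TPM, led by *Cd79b*, with 1 of 5 lower. NK and innate markers summed to 7.498 to 18.1 and 7.599 to 21.7 TPM, led by *Tyrobp* in DP and *Klrb1c* in CD8 cells, with 2 of 3 higher and 1 lower. Thymic epithelium reached 7.81 to 12.00 and 2.38 to 6.18 TPM, led by *Epcam*, the 1 gene tested and lower. Stroma and muscle reached 0.565 to 1.65 and 1.61 to 10.6 TPM, led by *Acta1* in DP and by *Col1a1*, the 1 gene tested and higher, in CD8 cells.

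No choice of CD8 libraries changed the calls of *Hk2*, *Pgam1* and *Pgk1*, while calls of *Eno1*, *Ldha*, *Pfkp*, *Pfkl* and *Hk1* changed with at least 1 such choice in control or cKO samples, as given above. With CD8 controls 3 to 5 alone, *Hk2*, *Pgam1* and *Pgk1* had log2 fold changes of 1.54, 0.86 and -0.79, all past the threshold, and *Hk1* and *Pfkp* passed as well at 0.28 and 0.48. *Eno1* then passed at 0.38 (adjusted p = 0.00365), and *Ldha*, at -0.30, did not. With the CD8 controls low in *Xist* alone, which match the sex pattern of the DP samples, the enzymes called were *Hk1*, *Hk2*, *Pfkp*, *Pgk1*, *Pgam1*, *Eno1* and *Ldha*. Both subsets were chosen after the marker and sex genes had been seen. Shares of all genes called in these subsets are not given here, so the calls are not set against a background.

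**Figure D5:**
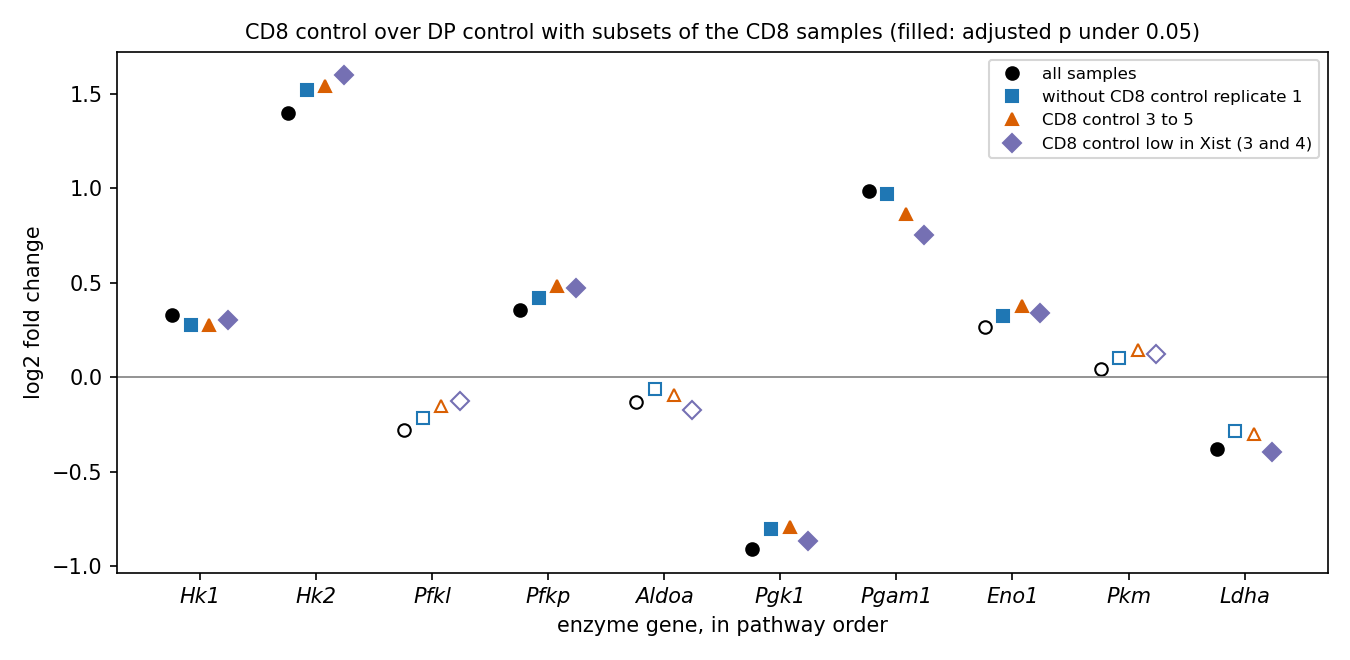
Log2 fold change of each enzyme in control CD8 over control DP samples (vertical axis) with all CD8 samples or 1 of 3 subsets, with filled symbols for an adjusted p under 0.05. *Hk2*, *Pgam1* and *Pgk1* are filled throughout, *Eno1* is open with all samples (0.27) and filled in each subset, and *Ldha* is open without CD8 control replicate 1 (-0.29) and with replicates 3 to 5 alone (-0.30).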

How the data were processed

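The authors filtered reads with fastp 0.13.1, aligned them to mm10 with HISAT2 2.1.0, counted fragments per gene with featureCounts 1.6.1 and deposited raw counts for 6 DP and 10 CD8 samples. The deposited DP table also gives the exonic length of each gene in bases. TPM were computed here from the counts and these lengths. Tests used edgeR 4.0.16 (R 4.3.3): TMM normalization, filterByExpr, the quasi-likelihood F test and Benjamini-Hochberg adjustment over all genes tested, without covariates and with the 2 groups compared (all 4 for the interaction). Standard errors and 95% intervals came from the same fit. All tests were 2-sided.

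The members and lists were chosen with earlier results of these data known. Besides the 10 enzymes and *Tox4*, genes were named from those past the threshold in each list and comparison, at most the 4 with the largest absolute log2 fold change, or, where none passed, at most the 3 with the highest mean level. The lists were other glycolysis genes, near copies, fructose 2,6-bisphosphate, pyruvate, pentose phosphate, gluconeogenesis, carriers, regulators, proliferation, DP and CD8 markers, and B cell, myeloid, erythroid, thymic epithelium, NK and innate, and stroma and muscle markers.

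Same-numbered DP samples deviated from their group means alike, with correlations across genes of 0.643, 0.12 and 0.29 for numbers 1 to 3 (mean over other numbers -0.168), so the replicate numbers were also fitted as pairs in DP cells. Alternatives were RLE and upper-quartile normalization, DESeq2 1.42.0, no filter, at least 10 counts in every sample, the replicate block, the study's thresholds (fold change of 1.5, mean TPM of 1), all 4 groups in one fit, CPM for TPM and each library left out. DESeq2 was run on every gene with any count and used its own filtering, so its calls have no share of the genes tested by edgeR. Subsets of CD8 samples and summed *Eno1* and *Eno1b* were added after seeing the data. Figures used matplotlib 3.10.9.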

Additional observations from a re-analysis of the deposited data

Results flagged for a closer look

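In the CD8 groups of 5 samples, 48 genes of the pathway and its surroundings were searched for a sample far from the rest, in 96 groups, and 8 gaps passed Dixon's 95% limit of 0.71. Chance gives about 1 in 20 groups. *Eno1* in CD8 cKO replicate 4 stood at 1028 TPM, with the others from 695 to 729.8 TPM. *Eno2* in CD8 control replicate 1 stood at 14.5 TPM, with the others from 4.53 to 6.59 TPM. *Taldo1* in CD8 control replicate 1 had 107 TPM, with the others from 162 to 173 TPM, and *Egln2* in the same library 36.7 TPM, with the others from 49.02 to 51.9 TPM. *Slc2a1* was low in CD8 control replicate 2, at 50.3 TPM, with the others from 67.2 to 69.4 TPM, and in CD8 cKO replicate 1, at 47.3 TPM, with the others from 62.7 to 64.2 TPM. *Slc16a3*, a lactate carrier, was high in CD8 cKO replicate 1, at 9.37 TPM, with the others from 2.76 to 4.67 TPM. *Pdhb* in CD8 cKO replicate 3 had 126 TPM, with the others from 142 to 147 TPM.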

How the results depend on the processing

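No enzyme passed the threshold for cKO against control in DP or CD8 cells, or for the interaction, under any alternative run, DESeq2 included, and in the edgeR fits of the report none had an unadjusted p under 0.05. Among all genes, calls in DP cells went from 17 to 176 with DESeq2, 152 with the replicate block (pairs), 74 without the filter and 43 with all 4 groups in one fit, and from 0 to 8 with 1 library left out: 8, 0 and 4 without control replicates 1, 2 and 3, and 7, 1 and 1 without cKO replicates 1, 2 and 3. Calls in CD8 cells went from 12 to 67 with DESeq2, 44 with the replicate block and 5 with samples 3 to 5, and from 4 to 21 with 1 library left out: 4 and 6 without control replicates 3 and 5, and 7 and 21 without cKO replicates 3 and 4. Same-numbered CD8 samples had correlations of 0.365, 0.299, 0.318, 0.313 and 0.0908, against a mean over other numbers of -0.0719. The last was under 0.1, and they were not taken as pairs. *Xist*, *Ddx3y* and *Rag1* levels matched by number across the CD8 genotypes, and no label says which samples share a litter. Whether CD8 samples were paired is thus not settled, and the replicate block called 0 of the 10 enzymes there. The interaction went from 13 genes to 36, 33, 5 and 3 with DESeq2, the replicate block, CD8 samples 3 to 5 and upper-quartile normalization, and ran from 0 to 11 with 1 library left out: 3 and 0 without DP control replicates 1 and 2, 1, 0 and 2 without DP cKO replicates 1, 2 and 3, 5, 4, 3, 3 and 3 without CD8 control replicates 1 to 5, and 5, 3, 2 and 5 without CD8 cKO replicates 2 to 5.

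For CD8 against DP, *Hk2*, *Pgam1* and *Pgk1* kept direction and call in all 19 alternatives of each genotype, without a share of all genes to compare. In control samples the enzymes called higher went from 4 to 2 with the replicate block, whose numbers no label links between DP and CD8 samples, and to 2 with the study's thresholds, and the 2 lower to 1 with those thresholds and to 1 with CD8 samples 3 to 5. Leaving out 1 library gave 3 to 5 higher and 1 to 2 lower, with 1 lower without DP control replicate 2 or CD8 control replicates 1, 3 or 4. Calls among all genes moved too, from 7093 to 5846 with the replicate block and to between 6121 and 7173 with 1 library left out. In cKO samples the 2 lower went to 1 with the study's thresholds, CD8 samples 3 to 5, or those low in *Xist*. Among the enzymes called higher there, the study's thresholds lost *Pfkp*, at 0.45. Leaving out 1 library gave 3 to 5 higher, with 5 without CD8 cKO replicate 5, and 2 to 3 lower. Calls among all genes in cKO samples went from 7402 to 6571 with the replicate block and to between 6514 and 7334 with 1 library left out. Of 190 values in control samples, 163 kept direction and call, 16 lost and 9 gained a call, and 2 changed sign uncalled; in cKO samples the counts were 173, 4, 7 and 6. The study's thresholds lose calls by their fold limit; for the rest the cause was not tested. In CPM the share of *Ldha* was 44.7% in control DP and 90.1% in control CD8 cells. Small differences may have gone uncalled, since standard errors of the enzymes ran from 0.098 to 0.247 between groups of 3 or 5. The parts of depth and group size in these errors were not tested.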
